A study of Mus musculus with 2 samples.

Results

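Heat shock proteins and their DnaJ co-chaperones are the cell's main protein folding machinery, and their mRNAs were measured here in the left cerebral cortex of the mouse. The members are the genes whose symbol starts with Hsp or Dnaj and that have a protein-coding transcript in the deposited annotation, leaving out Hspg2 and Hspbap1, which carry the prefix but are not chaperones. The rule found 73 genes, 28 with the Hsp prefix and 45 with the Dnaj prefix, among 55536 annotated genes, 22015 of them nuclear and protein-coding. Total RNA was sequenced from 2 libraries, replicates 1 and 2 of a single group, each prepared from 300 ng with ERCC spike-ins (a known mix of synthetic RNA standards). The tissue came from female mice of strain B6CASTF1/J aged 25 days, an F1 hybrid of C57BL/6 and CAST, with no treatment given in the labels. The labels give the samples separate animal numbers but the same donor identifier. Each was taken as its own animal; should both stem from the same mouse, their spread is that of the preparation only. There is no contrast between conditions, so genes were compared within each library and the replicates with each other.

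HSP70 proteins bind stretches of unfolded chain and release them in a cycle driven by ATP. J-domain proteins, the Dnaj genes, bring clients to HSP70 and trigger its ATP hydrolysis, and exchange factors such as the HSP110 proteins reset it, while HSP90 acts on late folding intermediates of kinases and receptors. Each compartment has its own set. Some cytosolic members are switched on by heat shock factor 1 when proteins misfold, others are made at all times, the endoplasmic reticulum (ER) set answers the unfolded protein response, and neurons use HSC70 with auxilin and cysteine string protein at synaptic vesicles.

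Levels between genes are given in TPM, which divides reads by transcript length and scales every library to the same total, from the deposited alignment-based tables. Comparisons of a gene between the replicates use CPM, its expected counts scaled to library size by TMM, which evens out differences in library makeup. Detection required a TPM of 1 or more in each library. Of the 73 members 63 were detected, a share that can be read beside the 58.7% of all nuclear protein-coding genes. The members together held 4660 TPM in replicate 1 and 4304 TPM in replicate 2, which was 1.03% and 0.929% of the TPM of all nuclear protein-coding genes. Members with the Hsp prefix made up 70.3% of this sum in replicate 1 and 67.5% in replicate 2, and Dnaj members the rest. Hspa8, Hsp90ab1 and Hsp90aa1 alone held 47.3% and 45.0%. The authors also deposited FASTQ-based values, which were generally higher in TPM. At a mean CPM of 5 or more, 9 of 54 members were at least 2-fold higher in mean FASTQ-based TPM, beside 8.69% of nuclear protein-coding genes, and none was 2-fold lower, beside 0.270%.

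**Figure D1:**
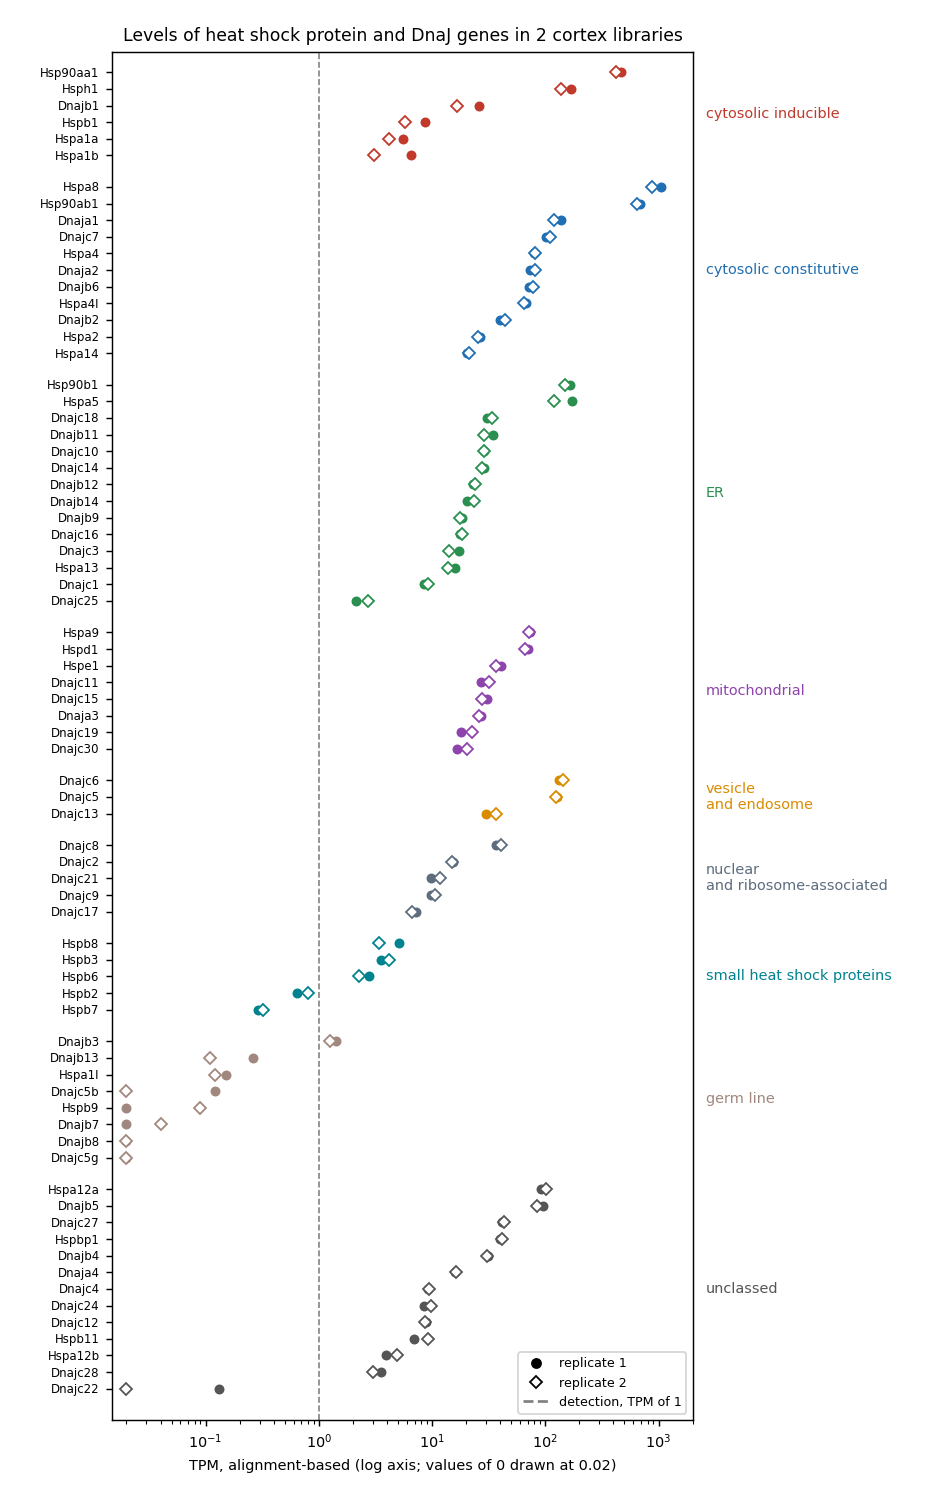
TPM of each of the 73 members on a log axis, grouped by class; filled circles are replicate 1, open diamonds are replicate 2, and the dashed line marks a TPM of 1. Hspa8 lies farthest right with 1052 and 875 TPM, and the germ line class lies at the left with 1 of 8 members past the line.

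The cytosolic inducible class ran from Hsp90aa1, the third most abundant member, to the inducible HSP70 genes at a mean of 4.81 TPM. Hsp90aa1, the stress-inducible HSP90, had 467 TPM in replicate 1 and 421 TPM in replicate 2. Hsph1, the HSP110 exchange factor, had 170.2 and 137 TPM. Dnajb1, the J protein that serves inducible HSP70, had 25.8 and 16.5 TPM, and Hspb1, the small heat shock protein known as HSP25 in mice, had 8.61 and 5.71 TPM. These 4 were all higher in replicate 1. The inducible HSP70 genes themselves were the lowest of the class, Hspa1a with 5.48 and 4.14 TPM and Hspa1b with 6.53 and 3.09 TPM, both at percentile 19.1 of the 12933 detected nuclear protein-coding genes. Over the 6 genes of the class the median was 17.2 TPM in replicate 1 and 11.1 TPM in replicate 2, at percentile 46.2 on the same scale.

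Heat shock factor 1 binds inverted repeats of GAA, and the promoters of the members were searched for a strict form of this heat shock element: GAA, any 2 bases, TTC, any 2 bases, GAA, or its reverse complement, TTC, any 2 bases, GAA, any 2 bases, TTC. RefSeq promoter windows, 250 bases before to 50 after a start site, were matched by symbol for 59 of the 73 members, and the search covered both strands. A match was found in the windows of 4 members, Hsph1, Dnajb6, Hspd1 and Hspe1, against 0.603% of all 32851 windows and 0.662% of 27025 genes. Hspd1 and Hspe1 share the same matched stretch. Of the 5 inducible members with a window, only Hsph1 had a match. The Hsph1 window is shown because it is the inducible member with a match (GRCm38.p6, the mm10 assembly, chr5:149636266-149636565, minus strand). It is written 5′ to 3′ with the heat shock element in capitals, 16 bases after the start site.
Hsph1: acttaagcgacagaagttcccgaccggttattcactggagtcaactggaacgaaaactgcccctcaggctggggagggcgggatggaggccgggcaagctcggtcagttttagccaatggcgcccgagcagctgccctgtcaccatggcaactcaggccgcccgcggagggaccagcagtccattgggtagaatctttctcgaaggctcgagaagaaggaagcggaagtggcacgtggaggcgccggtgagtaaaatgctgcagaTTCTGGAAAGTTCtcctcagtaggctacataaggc
A second Hsph1 window, set on another annotated start site, holds the same element 37 bases after its start. In Dnajb6 likewise, 2 overlapping windows place the same element 46 and 127 bases before their start sites. A match describes these letters only, and a window without them says nothing about the factor, since looser forms of the element were not searched.

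The cytosolic constitutive class was the most abundant of the compartments compared, with a median of 73.0 TPM in replicate 1 and 80.3 TPM in replicate 2, at percentile 89.8, and all 11 members were detected. It held 50.5% and 49.7% of the members' summed TPM. Hspa8, the constitutive HSC70 that also uncoats clathrin vesicles, was the highest of all members with 1052 TPM in replicate 1 and 875 TPM in replicate 2, and its mean ranked 11 among nuclear protein-coding genes. Hsp90ab1, the constitutive HSP90, followed with 683 and 642 TPM at rank 33. Dnaja1, a J protein of the cytosol, had 138 and 119.6 TPM, and Dnajc7, which handles clients between HSP70 and HSP90, had 101 and 109 TPM. The remaining 7 members lay between 20.8 and 79.9 TPM in the mean. They were the HSP110-type exchange factors Hspa4 and Hspa4l, the J proteins Dnaja2, Dnajb2 and Dnajb6, the HSP70 gene Hspa2, known for its role in male germ cells, and Hspa14, an HSP70-like protein of the ribosome.

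Between members classed as inducible and as constitutive, the order depended on the pair. Hspa1a stood at 0.00497 of the Hspa8 level (0.00521 in replicate 1 and 0.00473 in replicate 2), and Hspa1b at 0.00468 (0.00621 and 0.00353). These gaps, of 201-fold and 214-fold, far exceeded the spread between the replicates, with log2 differences of -7.65 ± 0.10 and -7.74 ± 0.57 (SD, n = 2). The HSP90 pair lay much closer, Hsp90aa1 at 0.670 of Hsp90ab1 and at a log2 difference of -0.58 ± 0.04, although the FASTQ-based quantification put it at -0.13 ± 0.18, which is within the spread. Dnajb1 stood at 0.161 of Dnaja1 (0.187 and 0.138), and at 0.101 (0.110 and 0.0923) in the FASTQ-based values. That pair joins different J protein subfamilies, Dnajb and Dnaja, and not close counterparts. Among HSP110 genes the inducible member was the higher: Hsph1 was at 1.91 times Hspa4, with 2.14 in replicate 1 and 1.71 in replicate 2.

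The ER class was led by its HSP90 and HSP70 members, and the J proteins lay well below them. Hspa5, the ER HSP70 known as BiP, had 172 TPM in replicate 1 and 119 TPM in replicate 2. Hsp90b1, the ER HSP90 known as GRP94, had 164 and 149.9 TPM. The ratio of Hsp90b1 to Hspa5 was 0.955 in replicate 1 and 1.26 in replicate 2, so the order of the pair changed between the libraries, with a log2 difference of 0.13 ± 0.28 (SD, n = 2). Next came Dnajc18, a J protein of the ER membrane, with 30.7 and 33.5 TPM, and Dnajb11, a BiP co-chaperone of the ER lumen, with 34.3 and 29.0 TPM. All 14 members were detected and their median was 21.6 TPM in replicate 1 and 23.8 TPM in replicate 2, at percentile 61.2. Dnajc10, a disulfide reductase, Dnajb9 and Dnajc3, cofactors of BiP, the ER membrane proteins Dnajb12, Dnajb14, Dnajc14, Dnajc16 and Dnajc1, and the HSP70-like Hspa13 lay between 8.91 and 28.9 TPM in the mean. Dnajc25 was the lowest, with 2.12 and 2.74 TPM.

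The ER stress element, read by ATF6 with NF-Y in the unfolded protein response, was searched on both strands as CCAAT, any 9 bases, CCACG, or its reverse complement, CGTGG, any 9 bases, ATTGG. It was present in 3 members, Hspa5, Hsp90b1 and Dnajc3, all from the 12 ER members with a promoter, against 0.119% of all windows and 0.137% of genes. Their windows are shown because 3 ER members share this element, which stands in capitals. They lie on GRCm38.p6 at chr2:34771840-34772139 on the plus strand for Hspa5, chr10:86705395-86705694 on the minus strand for Hsp90b1 and chr14:118937682-118937981 on the plus strand for Dnajc3.
Hspa5: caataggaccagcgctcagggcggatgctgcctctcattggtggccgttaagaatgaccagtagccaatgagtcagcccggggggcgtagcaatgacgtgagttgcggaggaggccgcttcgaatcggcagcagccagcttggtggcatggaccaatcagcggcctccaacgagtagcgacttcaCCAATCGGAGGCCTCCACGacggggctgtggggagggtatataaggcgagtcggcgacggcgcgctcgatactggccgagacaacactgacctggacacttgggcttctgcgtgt
Hsp90b1: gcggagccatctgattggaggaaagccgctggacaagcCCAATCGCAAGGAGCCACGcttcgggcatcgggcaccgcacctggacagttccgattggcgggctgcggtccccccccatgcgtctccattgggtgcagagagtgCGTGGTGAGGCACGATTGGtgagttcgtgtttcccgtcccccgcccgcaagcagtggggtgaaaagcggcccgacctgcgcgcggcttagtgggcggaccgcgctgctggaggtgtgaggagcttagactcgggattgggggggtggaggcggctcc
Dnajc3: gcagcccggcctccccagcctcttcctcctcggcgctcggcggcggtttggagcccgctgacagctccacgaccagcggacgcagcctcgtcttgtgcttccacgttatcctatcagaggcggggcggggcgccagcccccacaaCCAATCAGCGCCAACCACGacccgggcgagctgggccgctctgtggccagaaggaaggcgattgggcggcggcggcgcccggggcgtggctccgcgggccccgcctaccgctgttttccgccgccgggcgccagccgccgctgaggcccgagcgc
The elements start 65 bases before the start site in Hspa5 and 105 bases before it in Dnajc3. Hsp90b1 holds 2 of them, in opposite orientations, 212 and 107 bases before its start.

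**Figure D2:**
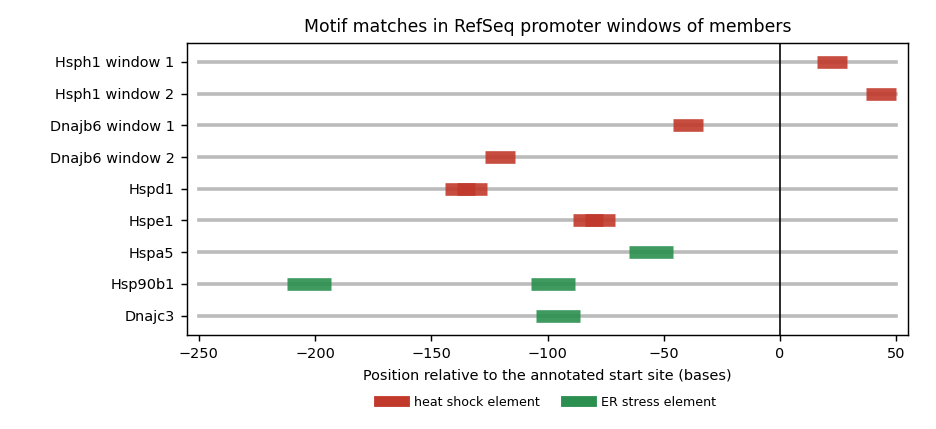
Positions of the heat shock element and the ER stress element in the RefSeq windows of the 7 members with a match, in bases from the annotated start site at 0; each grey line is a window and each coloured block a match. The ER stress elements all lie upstream, between 212 and 65 bases before the start, and overlapping matches in Hspd1 and Hspe1 appear as darker blocks.

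The mitochondrial class ranged from 18.5 to 72.4 TPM in the mean. Hspa9, the mitochondrial HSP70 known as mortalin, had 73.1 TPM in replicate 1 and 71.6 TPM in replicate 2, and Hspd1, the chaperonin HSP60, had 69.7 and 65.5 TPM, a log2 difference of 0.10 ± 0.04 between them (SD, n = 2). Hspe1, the lid HSP10 that caps the HSP60 ring, had 40.8 and 36.6 TPM. The median of the 8 genes was 28.7 TPM in replicate 1 and 29.7 TPM in replicate 2, at percentile 69.2. Dnajc11, a protein of the cristae-organising complex, had 26.9 and 31.9 TPM. Dnajc15 and Dnajc19, J proteins of the import motor, Dnaja3, the J protein partner of mortalin, and Dnajc30 lay between 18.5 and 28.9 TPM in the mean. Hspa5 of the ER was at 1.98 times Hspa9, with 2.35 in replicate 1 and 1.66 in replicate 2.

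Hspe1 and Hspd1, which work as a complex, are neighbours on chromosome 1 that are read in opposite directions, with annotated starts 111 bases apart and 112 bases of overlap. In TPM Hspe1 stood at 0.572 of Hspd1 (0.586 and 0.559, a log2 difference of -0.80 ± 0.05, SD, n = 2), and at -0.28 ± 0.13 in the FASTQ-based values. Both RefSeq windows hold a heat shock element, as overlapping pairs. It lies 89 and 84 bases before the RefSeq start for Hspe1 and 144 and 139 bases before it for Hspd1. These RefSeq starts differ from the annotated starts given above. By that annotation Hspd1 runs from 55077835 to 55088243, so the element lies inside Hspd1 and not before its start. The window of Hspe1 is shown because it holds the element of both genes (chr1:55087898-55088197, plus strand, the matched stretch in capitals).
Hspe1: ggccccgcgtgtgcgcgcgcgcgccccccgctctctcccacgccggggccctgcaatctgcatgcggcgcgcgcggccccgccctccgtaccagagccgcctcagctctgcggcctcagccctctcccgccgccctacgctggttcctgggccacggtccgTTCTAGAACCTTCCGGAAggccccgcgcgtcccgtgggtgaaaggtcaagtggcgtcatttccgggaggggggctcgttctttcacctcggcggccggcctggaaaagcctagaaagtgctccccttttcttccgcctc

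Outside these 4 compartments the synaptic J proteins were high. Dnajc6, auxilin, which recruits HSC70 to clathrin coats, had 133 TPM in replicate 1 and 143 TPM in replicate 2, and Dnajc5, cysteine string protein of synaptic vesicles, had 126 and 124 TPM. With the endosomal Dnajc13, at 29.9 and 37.0 TPM, they gave a median at percentile 94.9. The order of Dnajc6 and Dnajc5 changed with the quantification, with log2 differences of 0.15 ± 0.09 in the alignment-based and -0.13 ± 0.20 in the FASTQ-based values (SD, n = 2). The 5 nuclear and ribosome-associated members were led by the splicing-associated Dnajc8, with 36.6 and 40.4 TPM, ahead of Dnajc2 (15.2 and 15.1), Dnajc21 (9.71 and 11.8) and the histone chaperone Dnajc9 (9.73 and 10.6). Dnajc17 had 7.17 and 6.65 TPM.

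Small heat shock proteins hold unfolded proteins without ATP, and the 5 genes with the Hspb prefix placed in this class had means of at most 4.25 TPM. Hspb8, a partner of BAG3 in selective autophagy, had 5.09 and 3.40 TPM, Hspb3 had 3.52 and 4.20 TPM, and Hspb6 had 2.78 and 2.24 TPM. Hspb2 (0.640 and 0.800 TPM) and Hspb7 (0.290 and 0.320 TPM) were under the detection threshold. Low levels were not shared by all genes of the family. Cryab, the small heat shock protein alpha-B crystallin, lacks the prefix and is no member, and it was at 61.2 and 73.0 TPM. Its gene overlaps Hspb2 on the opposite strand.

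Of the 8 genes known for germ line expression, Dnajb3 passed the threshold, with 1.41 and 1.26 TPM. Dnajb8 and Dnajc5g had 0 counts in both libraries. A count of 0 allows up to 0.0974 CPM in replicate 1 and 0.109 CPM in replicate 2, so they were not detectable at this depth. Dnajb13, Hspa1l, Dnajc5b, Hspb9 and Dnajb7 had at most 8 expected counts in a library. The 13 unclassed members were led by Hspa12a, a distant HSP70 relative, with 92.1 TPM in replicate 1 and 102 TPM in replicate 2, and Dnajb5, with 96.3 and 84.2 TPM. Dnajc27 had 41.5 and 42.9 TPM and Hspbp1, an HSP70 exchange factor, had 40.0 and 41.6 TPM. Dnajb4, Dnaja4, Dnajc4, Dnajc24, Dnajc12, Hspb11, Hspa12b and Dnajc28 lay between 3.29 and 31.0 TPM, and Dnajc22 had 4 counts in replicate 1 and 0 counts in replicate 2.

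Several of the members share sequence with other genes, and there the estimated counts depend on how reads were divided. Of 67 members with a leading transcript, 20 shared at least 1 stretch of 100 nt with another gene and 11 shared at least 10% of their stretches. The search was not run for other genes, so no share over all genes stands beside these counts. Hspa8 shared 73.2%, mostly with the processed pseudogene Gm15459, which was assigned 10036 and 7391 expected counts beside the 37622 and 26069 counts of Hspa8. That is 26.7% and 28.4% of the Hspa8 count in the alignment-based tables and 22.6% and 25.7% in the FASTQ-based ones. Hsp90aa1 shared 53.2%, and its pseudogene Gm12346 held 1.89% and 2.04% of its count. Hspb1 shared 56.3% with Hsp25-ps1, to which the alignment-based tables gave 4.89 counts in replicate 1 and 13.8 counts in replicate 2.

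Hspa1a and Hspa1b, neighbours on chromosome 17 with 9951 bases between them, shared 48.6% and 49.9% of their stretches, nearly all with each other. The authors' posterior standard deviation of the count, which measures the doubt from divided reads, was 15.2 and 9.48 for Hspa1a and 15.1 and 9.45 for Hspa1b. The remaining members past 10% were Dnajb6 (34.9%), Hspd1 (26.9%), Dnaja1 (25.0%), Hspe1 (20.4%), Dnajc19 (17.0%) and Hspa14 (13.1%). The Hspa14 partner is Gm45902, annotated as protein-coding on the same strand, and it held 35.5% and 38.2% of the Hspa14 count. In the FASTQ-based counts this was 43.1% and 45.3%. The Hspe1 partner AC117239.2, also annotated as protein-coding, held 14.6% and 12.2% of the Hspe1 count. In the FASTQ-based counts it held 2.10% and 2.27%.

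Most members kept the same leading transcript between the libraries, and fewer kept it between the quantifications. Of the 63 detected members, 48 had a transcript with at least 50% of the gene's TPM in both libraries, 60 had the same leading transcript in both libraries, and 52 had the same leader in both quantifications. The median share of TPM in protein-coding transcripts was 92.2% in replicate 1 and 91.0% in replicate 2. Summed over the detected members, retained introns held 9.09% and 8.86% and processed transcripts without a reading frame 5.17% and 5.20%. Hspa1a, Hspa1b, Hspa2, Hspb3, Dnajb3 and Dnajc30 are detected genes whose leading coding transcript is a single exon.

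The lowest coding share was that of Dnajc15, with 24.8% in replicate 1 and 27.8% in replicate 2. Its short transcript Dnajc15-203, of 419 nt and with no reading frame, held 55.9% and 49.9%. Dnajc7 had 51.8% and 43.4% in coding transcripts, the rest lying in processed transcripts. This gene overlaps Cnp, a myelin gene on the opposite strand, and the sources used here do not say how strand entered the counting. Other members overlap a gene on the opposite strand too, among them Dnajc19 with Fxr1, and Dnaja3 with Coro7. Dnaja3 had 98.2% and 98.1% in coding transcripts. The part of such overlaps in the coding shares was not tested. Dnajb5 had 57.2% and 59.8%, Dnajc24 53.2% and 55.6%, Dnaja2 63.2% and 58.6%, and Dnajc11 62.6% and 63.2%. Dnajc19 had 66.6% and 53.9%, the rest lying in its retained-intron transcript Dnajc19-205. In the FASTQ-based values that transcript was at 0 in both libraries and the coding transcripts held all of the gene's TPM. Hspb6 differed most between the libraries with 69.9% and 24.2%, at 73.0 and 46.0 counts, whereas the FASTQ-based share of its coding transcript Hspb6-201 was 81.9% and 77.6%. Hspa8 was led by Hspa8-202 in the alignment-based values, with 45.6% and 48.5%, and by Hspa8-201 in the FASTQ-based values, with 92.7% and 87.4%. Both encode protein.

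**Figure D3:**
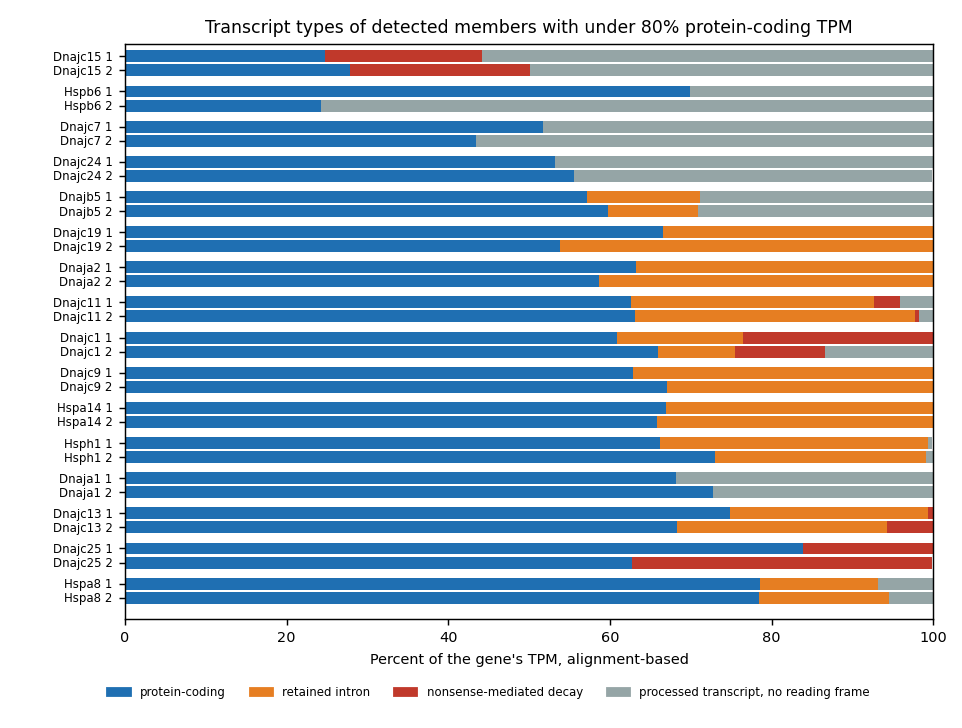
Percent of each gene's TPM by transcript type, alignment-based, for the 16 detected members under 80% protein-coding; each gene has a bar for replicate 1 above a bar for replicate 2. Dnajc15 has the smallest protein-coding share with 24.8% and 27.8%, and Hspb6 shows the widest gap between its bars.

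The replicates were compared gene by gene as the ratio of CPM in replicate 1 over replicate 2, with an exact 95% interval that covers counting error only. Members were called at a ratio of 1.5 in either direction and a mean CPM of at least 5, a threshold of size, since a single library from each animal allows no p-value. Of 54 members at that depth, 3 were called higher in replicate 1, or 5.56%, beside a background of 0.766% of 11095 nuclear protein-coding genes and 0.828% of 11721 annotated genes. No member was called lower, beside 0.451% and 0.691%. The 3 were the inducible Hspa1b (mm10, chr17:34956436-34959238, minus strand) and Dnajb1 (chr8:83608193-83612653, plus strand) and the ER gene Hspa5 (chr2:34771970-34777547, plus strand). At a difference of 25% the count was 9 higher and 0 lower, beside 3.33% and 2.84% of nuclear protein-coding genes, and at 2-fold it was 1 higher and 0 lower, beside 0.180% and 0.0451%.

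Hspa1b had 368 counts in replicate 1 and 146 in replicate 2, or 11.9 and 5.33 CPM, a ratio of 2.24 (interval 1.85 to 2.74). Dnajb1 had 50.3 and 30.4 CPM and a ratio of 1.65 (1.52 to 1.80). Hspa5 had 275 and 177 CPM and a ratio of 1.55, with an interval from the 1.5-fold line to 1.61. All were higher in replicate 1 in the FASTQ-based counts too, with ratios of 2.37 for Hspa1b, 1.63 for Dnajb1 and 1.58 for Hspa5. Because reads are divided between Hspa1a and Hspa1b, their sum is the safer value: 694 counts in replicate 1 and 354 in replicate 2, a ratio of 1.75 (1.53 to 1.99). Hspa1a alone had 10.6 and 7.57 CPM and a ratio of 1.40 (1.17 to 1.67).

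The other members with the highest ratios were Hspa8 (1222 and 950.4 CPM, 1.29), Dnajc28 (7.37 and 5.54 CPM, 1.33), Dnajc3 (58.6 and 45.8 CPM, 1.28), Dnajb5 (139.8 and 110.1 CPM, 1.27), Dnajb11 (42.2 and 33.6 CPM, 1.26) and Hsph1 (286 and 235 CPM, 1.22). Below the depth threshold, Hspb8 (5.91 and 3.57 CPM, 1.65) and Hspb1 (4.68 and 2.92 CPM, 1.60) were also past 1.5. Hspb8 stayed past it in the FASTQ-based counts, at 1.79, whereas Hspb1 was at 1.37 (1.04 to 1.81) there. The alignment-based tables gave the Hspb1 pseudogene more counts in replicate 2, as given above. The part of this in the Hspb1 ratios was not tested. The lowest ratios at a mean CPM of 5 or more were those of Dnajc30 (17.6 and 20.3 CPM, 0.870), Dnajc21 (12.8 and 13.8 CPM, 0.924) and Dnajc11 (43.5 and 46.9 CPM, 0.927). Of these 3, Dnajc30 had an interval under 1, from 0.771 to 0.981.

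**Figure D4:**
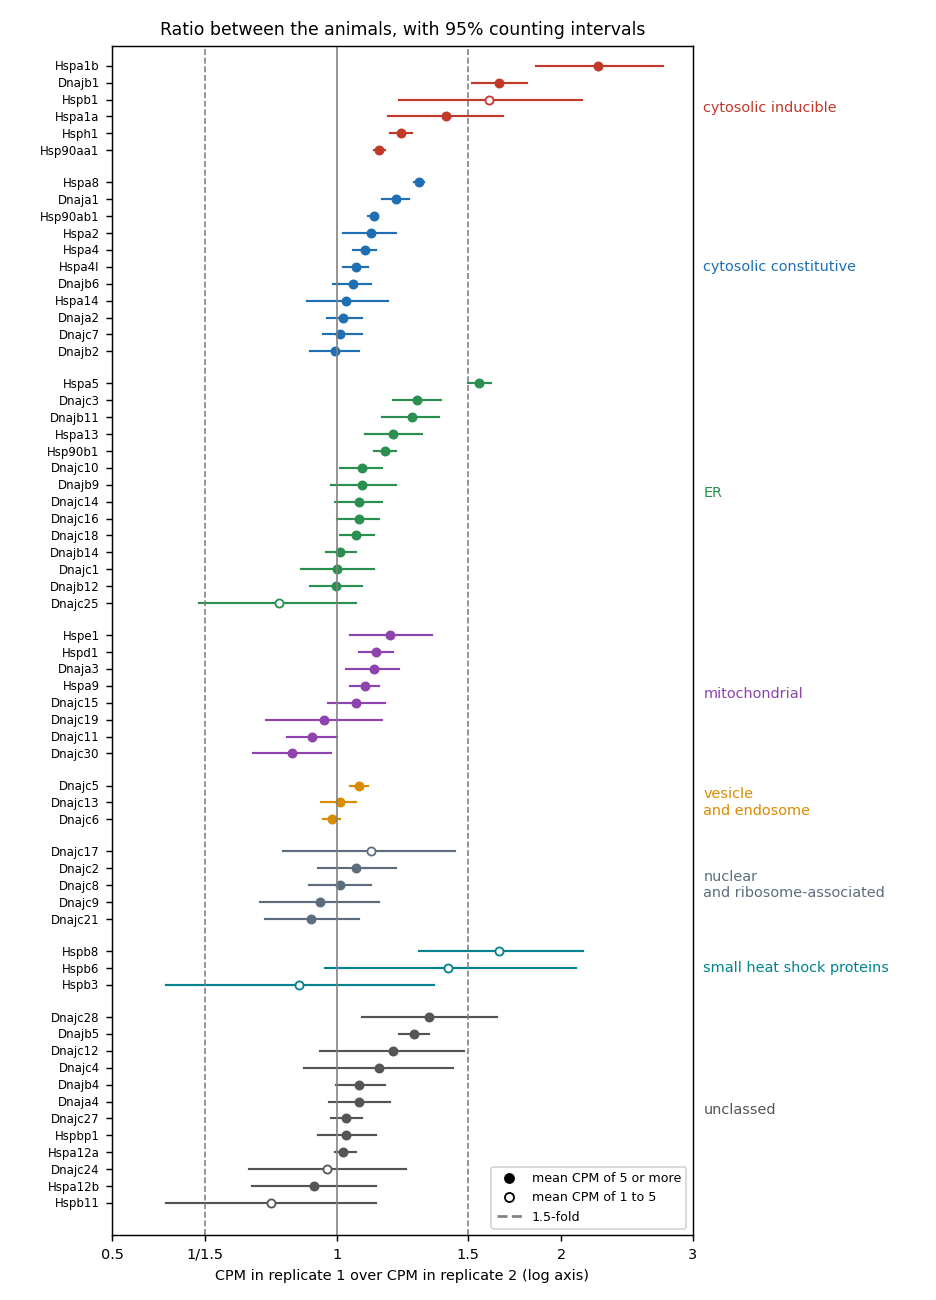
Ratio of CPM in replicate 1 over replicate 2 for the members at a mean CPM of 1 or more, on a log axis, by class; lines are 95% counting intervals, filled points have a mean CPM of 5 or more, and dashed lines mark 1.5-fold. All 6 cytosolic inducible members lie right of 1, with Hspa1b at 2.24, and the 3 small heat shock proteins shown run from 0.891 to 1.65.

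By class, the cytosolic inducible members had the highest median. All 6 were higher in replicate 1 under each of the 4 scalings tried, with ratios from 1.14 for Hsp90aa1 to 2.24 for Hspa1b and a median log2 ratio of 0.58. At a mean CPM of at least 5 the inducible median was 0.49. The medians were 0.08 for the constitutive class, 0.10 for the ER class and 0.10 for the mitochondrial class, and 0.03 over all nuclear protein-coding genes. The small heat shock proteins came close to the inducible class, with a median of 0.50 over the 3 genes at a mean CPM of 1 or more. Over all 5 of them, with 1 CPM added to each value, it was -0.03. The unclassed members had a median of 0.07. The vesicle and nuclear classes each had a median of 0.01, which turned to -0.03 and -0.02 with library totals. Spike-in scaling shifted the median over all nuclear protein-coding genes to 0.10. The ratios of the 14 ER members formed a continuous range. Hspa5, Dnajc3 and Dnajb11 were followed by Hspa13 (1.19), Hsp90b1 (1.16), Dnajb9 (1.08), Dnajc10 (1.08), Dnajc14 (1.07), Dnajc16 (1.07) and Dnajc18 (1.06), then by Dnajb14 (1.01), Dnajc1 (1.00), Dnajb12 (0.996) and Dnajc25 (0.837). Classes follow what the proteins are known to do, but the members and gene lists were chosen with earlier results of these data known. Classes also differ in size and depth, and no test of their difference was made.

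Counting direction alone, 45 of the 54 members were higher in replicate 1, or 83.3%, beside 61.0% of nuclear protein-coding genes. This count depends on the scaling: with library totals it was 38 of 54, or 70.4% beside 49.8%, and with spike-in totals 49 of 54, or 90.7% beside 77.7%. In the constitutive class 10 of 11 were higher with TMM, 8 with library totals and all 11 with spike-in totals. In the ER class 12 of 14 were higher with TMM and 10 with library totals, and in the mitochondrial class 5 of 8 with both.

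Most other genes of the pathways lay within 1.5-fold between the replicates, as did most nuclear protein-coding genes. Of the latter, at a mean CPM of 5 or more, 0.766% were called higher in replicate 1 and 0.451% lower. Directions are given with TMM, under which 61.0% of nuclear protein-coding genes at a mean CPM of 5 or more were higher in replicate 1. Other scalings were not tried for these lists, and ratios near 1 can change sides with them. Of 3 heat shock factors, the transcription factors of the heat shock response, 2 were higher in replicate 1 and none was past 1.5-fold. Hsf1 had 31.5 and 33.0 CPM, a ratio of 0.954. All 17 cofactors of HSP90 and HSP70 had a ratio of 1.00 or more, with a median of 1.10. The highest was Fkbp5, a glucocorticoid-induced HSP90 co-chaperone, with 44.3 and 27.5 CPM, a ratio of 1.61 and the only call of the list. The 8 subunits of CCT, the cytosolic chaperonin for actin and tubulin, ran from 1.09 to 1.19. Of 16 genes of ER folding and the unfolded protein response, 15 were higher, with a median of 1.17 and 1 call, Sdf2l1, an ER stress-induced partner of BiP co-chaperones, with 10.1 and 5.58 CPM and a ratio of 1.81. The others of this list ran from 0.929 to 1.39, and its 4 transcription factors, Xbp1 (1.38), Atf4 (1.11), Ddit3 (1.03) and Atf6 (1.01), covered much of that range. The 6 mitochondrial folding genes had a median of 1.02 and no call. Fkbp5 and Sdf2l1 are named for their ratios, and the 4 factors as a group, after their values were seen.

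Markers of other cells and of neuronal activity also differed between the libraries. All 16 immediate early genes, which neurons switch on within minutes of activity, were higher in replicate 1, with a median ratio of 1.74 and summed levels of 515 and 323 TPM. All 9 markers of striatal neurons, a region that borders the cortex, were higher, with a median of 1.60 and sums of 563 and 379.8 TPM. All 10 markers of myelinating oligodendrocytes were lower, with a median of 0.667 and sums of 1570 and 2474 TPM. Choroid plexus markers summed to 102 and 8.24 TPM, of which Ttr made up 96.0 and 4.79 TPM, and no marker of any of these lists was at 0 in either library. The 5 erythroid markers summed to 665 and 504 TPM and were all higher.

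Markers of the cortex itself differed less. The 8 markers of excitatory neurons, which define the labelled tissue, were all detected, at sums of 2064 and 2186 TPM, with a median ratio of 0.919 and 2 of 8 higher in replicate 1. Astrocyte markers summed to 1570 and 1656 TPM and endothelial markers to 118 and 120.0 TPM. The part of these differences in the ratios of Hspa1b, Dnajb1, Hspa5 and the inducible class was not tested. In bulk tissue, fewer cells of a type and less RNA per cell cannot be told apart.

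**Figure D5:**
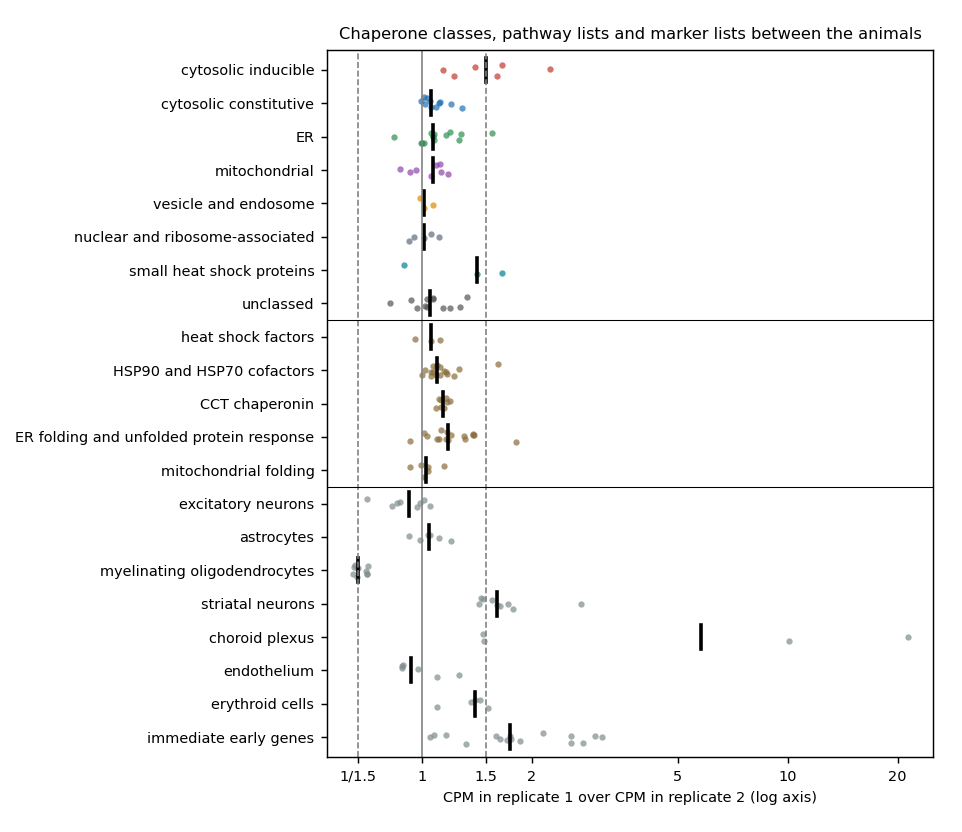
Ratio of CPM in replicate 1 over replicate 2 on a log axis for each gene at a mean CPM of 1 or more, by chaperone class (top), pathway list (middle) and marker list (bottom); black bars are medians and dashed lines mark 1.5-fold. The inducible class, immediate early genes and striatal markers lie right of 1 and myelin markers left of it, at a median of 0.667.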

How the data were processed

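Total RNA-seq of 2 cortex libraries was analysed from the processed tables. Per the accompanying file description, the authors quantified reads on assembly mm10 with GENCODE M21; the software is not given in the sources used here. Deposited alignment-based tables hold expected counts, which divide reads matching several places, TPM, and a posterior standard deviation of the count, per the file headers. The deposited FASTQ-based tables hold estimated counts and TPM per transcript, summed here per gene. Reads of the CAST alleles were placed on a C57BL/6 reference, and what this does to the counts was not tested.

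Replicate 1 held 31301126 expected counts and replicate 2 held 27182336. Spike-ins took 0.350% and 0.378% and stayed out of library sizes. Entries that name no gene took 6.39e-06% and 1.81e-05% and were left out. Counts were rounded for scaling with edgeR 4.0.16 (TMM factors 0.987 and 1.01) in R 4.3.3 with limma 3.58.1; DESeq2 1.42.0 gave size factors only. Ratios were taken without a pseudocount, class medians over members at a mean CPM of at least 1, and intervals are exact (Clopper-Pearson) at 95%. The floor for a count of 0 is 3 counts. Intervals and floors cover counting error only. Ratios were checked on simulated data. With 1 library per animal no test was possible.

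Members were placed in classes by what their proteins are known to do, and the members and gene lists were chosen with earlier results of these data known. The genes named are the 4 most abundant of each class, both genes of each pair, up to 10 with the largest and 10 with the smallest ratios at a mean CPM of 5 or more, members at 0 counts, those whose quantifications differ over 2-fold, up to 8 with the lowest coding share, and up to 4 of each pathway list. For Ddit3, which has 2 identifiers, the identifier with reads was used, and Cct6a, annotated as a processed transcript, was kept. Promoters are RefSeq windows on GRCm38.p6. Sequence sharing was searched in GENCODE M21 transcripts with Python 3.11.15, numpy 2.4.6, pandas 2.3.3 and scipy 1.17.1, and figures used matplotlib 3.10.9.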

Additional observations from a re-analysis of the deposited data

How the results depend on the processing

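No paired analysis was possible because the samples form 1 group. Levels depended on the quantification: FASTQ-based TPM were a median of 1.62 times the alignment-based ones over detected members and 1.54 times over detected nuclear protein-coding genes. The FASTQ-based class medians were 21.1 TPM for the inducible, 129 for the constitutive, 36.6 for the ER and 67.9 for the mitochondrial class, which keeps the constitutive class highest and the inducible class lowest. The cause was not tested. The number of members higher in replicate 1, 3 as reported, was 5 at a mean CPM of at least 1, 9 at a difference of 25% and 1 at 2-fold. It stayed within 1.5 times the reported count under the other scalings and in the FASTQ-based counts. Leaving out a replicate, the protein-coding share ranged from 91.0% to 92.2%. Of the log2 ratios between genes, 3 changed sign: Hsp90b1 over Hspa5 (-0.07 without replicate 2 and 0.33 without replicate 1) and, in FASTQ-based values, Hspa9 over Hspd1 (-0.01) and Dnajc6 over Dnajc5 (-0.13). The number of members detected ranged from 54 at a TPM of at least 5 to 64 at 0.5, against 63. The medians of the log2 ratio of the inducible, constitutive, ER and mitochondrial classes stayed positive under all scalings, filters and counts tried. That of the vesicle class was -0.03 and that of the nuclear class -0.02 with library totals, the nuclear class was at -0.03 at a mean CPM of at least 5, and the small heat shock proteins, none of which reached that depth, were at -0.03 with no filter and a pseudocount of 1 CPM, against 0.01, 0.01 and 0.50 as reported. Spread rests on 2 libraries, and members under 5 CPM rest on few reads.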

Other observations

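The 9 members whose mean FASTQ-based TPM was at least 2-fold the alignment-based one, at a mean CPM of 5 or more, were Dnajc8 (105 against 38.5 TPM), Dnajc11 (79.4 against 29.4), Dnajc18 (84.2 against 32.1), Dnajc1 (21.7 against 8.91), Dnaja1 (279.9 against 129), Dnajc14 (59.3 against 28.1), Hsp90aa1 (927 against 444), Dnajc9 (20.8 against 10.2) and Hspe1 (79.1 against 38.7). Counts differed less: Dnajc8 had 947 and 836 alignment-based counts and 1067 and 969.9 FASTQ-based counts in replicates 1 and 2. Transcripts of Hsp90aa1 were also divided differently. The short coding transcript Hsp90aa1-207, of 481 nt, held 37.2% and 49.6% of the gene's FASTQ-based TPM and 1.28% and 0.577% of its alignment-based TPM.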
